A study of Mus musculus with 11 samples.

Results

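The amyloid secretases are the proteases that cut the amyloid precursor protein, and 9 genes that encode them or their subunits were taken by gene name from a deposited table of 36826 genes. They are the alpha-secretase genes Adam10 and Adam17, the beta-secretase gene Bace1 and its relative Bace2, and the gamma-secretase genes Psen2, Ncstn, Aph1a, Aph1b and Psenen. All 9 were found in the table and 8 passed the filter on low values, with Bace2 below it. Transcripts were measured by bulk RNA sequencing of mouse hippocampus in 11 libraries: 4 of APP/PS1 mice that received a 0.4 T rotating magnetic field (RMF), 3 of APP/PS1 mice given sham exposure (sham) and 4 of wild-type C57BL/6J mice (WT). The APP/PS1 genotype, shared by the RMF and sham groups, includes transgenes for amyloid precursor protein and for a presenilin, a gamma-secretase subunit. That presenilin is not the product of Psen2, and its gene is not among the 9. The part of the added presenilin in differences between APP/PS1 and WT mice was not tested. The mice were 14 months old, and exposure or sham exposure began at 2 months of age and took up 12 months on 5 working days a week, at 3 h a day and from 11 months of age at 6 h a day. The labels name no promoter, line or sex, and they do not say that WT mice were placed in the apparatus.

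Whether the libraries come from different animals is not stated, and pooled RNA is mentioned in the protocol for library making, so the p-values reflect library-to-library spread that can be technical. The labels also give the cell type as neurons. Markers of microglia, astrocytes and oligodendrocytes were detected in all 11 libraries, with none of them at 0 counts in any library, so the libraries did not hold RNA of neurons alone. Library totals lay between 68124548 and 70786786 counts. App, which encodes the amyloid precursor protein and checks the genotype labels, stood between 2960 and 3669 counts per 1000000 (CPM) in the 7 APP/PS1 libraries and between 1558 and 1633 CPM in WT libraries. WT 3 stood apart from its group. Its mean log2 deviation for 8 dentate granule cell markers was -1.96, where WT 1, 2 and 4 had 0.07 to 0.50, and its 8 neocortex markers summed to 1003 CPM, against 313 to 372 CPM. Sham 4 had 9.53% of its counts on genes of the mitochondrial genome, against 5.76% to 7.39% in the other libraries.

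As background, the amyloid precursor protein is cut along either of 2 routes. On the first, an alpha-secretase cuts within the amyloid-beta stretch and releases a soluble ectodomain. On the second, a beta-secretase cuts at the start of that stretch, and gamma-secretase then cuts the remaining stub inside the membrane and releases amyloid-beta. Gamma-secretase is a complex of a presenilin, which holds the active site, with nicastrin, an APH-1 protein and PEN-2, and it also cuts Notch receptors and many other membrane proteins.

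The coding stretches of the catalytic sites show the 3 kinds of protease among these genes. They are given 5′ to 3′ from GENCODE M21 transcripts, with the bases of the active-site motif in capitals and 9 coding bases on each side. Each motif was searched as an amino acid pattern in the translated coding sequence, and the pattern occurred 1 time in it. For Bace1 and Bace2 the pattern was that of the first motif alone, so other forms of an active-site motif were not counted.
Adam10, zinc-binding motif of metzincin proteases: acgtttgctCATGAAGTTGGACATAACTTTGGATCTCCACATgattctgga
Adam17, zinc-binding motif of metzincin proteases: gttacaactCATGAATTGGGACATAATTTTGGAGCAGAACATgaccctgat
Bace1, first active-site motif of aspartic proteases: atcctggtgGACACGGGCAGTagtaacttt
Bace2, first active-site motif of aspartic proteases: attcttgtgGACACTGGAAGCagtaacttc
Psen2, presenilin active-site motif: gtgaagctcGGCCTGGGAGACttcatcttc
Over the whole coding sequence, 55.9% of 2189 aligned bases were identical between Adam10 and Adam17, and 61.0% of 1483 between Bace1 and Bace2. No run of 50 bases in the transcript of Adam10, Adam17, Bace2, Psen2 or Ncstn that was examined recurred in a transcript of another gene, and 0.15% of such runs did so for Bace1. This compares transcripts on their own strand and does not cover genes that overlap on the other strand, which are given beside each member.

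Aph1b has a close copy in mice, Aph1c, which is shown beside it because reads of the pair can be hard to assign. The 60 aligned coding bases with the most differences between them, coding bases 5 to 64 of each, are printed with the 11 differing bases in capitals.
Aph1b: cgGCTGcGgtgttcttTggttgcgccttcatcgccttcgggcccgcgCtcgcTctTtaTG
Aph1c: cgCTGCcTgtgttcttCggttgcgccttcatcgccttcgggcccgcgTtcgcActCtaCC
Of 771 aligned coding bases 29 differed, an identity of 96.2%, and 19.7% of the runs of 50 bases in the Aph1b transcript also occurred in Aph1c. Such sharing was found for 2 more members. For Aph1a, 24.9% of runs also occurred in the gene Gm15429, which held between 77 and 234 counts per library, against 1954 to 2802 for Aph1a. For Psenen, 41.5% of runs also occurred in the gene Gm12396, which was not analysed here, and a gene listed as Psenen-ps held between 3 and 43 counts per library, against 1014 to 1539 for Psenen. The counts of Aph1a, Aph1b and Psenen are uncertain to that extent, since no source used here says how reads that match several genes were handled.

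Bace1 and Adam10 had the highest transcript levels per length, and Bace2 the lowest. On the FPKM scale, the deposited measure of fragments per kilobase of transcript, scaled to library size, the medians over the 11 libraries were 20.4 for Bace1, 19.4 for Adam10, 13.3 for Ncstn, 12.7 for Psenen, 10.2 for Aph1a, 7.52 for Aph1b, 2.74 for Psen2, 2.51 for Adam17 and 0.119 for Bace2. Neighbours in this order did not always differ beyond their spread. Bace1 was above Adam10 in 7 of 11 libraries, Ncstn above Psenen in 6 and Psen2 above Adam17 in 6. Adam10 was above Ncstn in 10 libraries, and Psenen above Aph1a and Aph1a above Aph1b in all 11, although the ranges of each pair overlapped across libraries. The ranges of Aph1b and Psen2, and of Adam17 and Bace2, did not overlap.

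**Figure D1:**
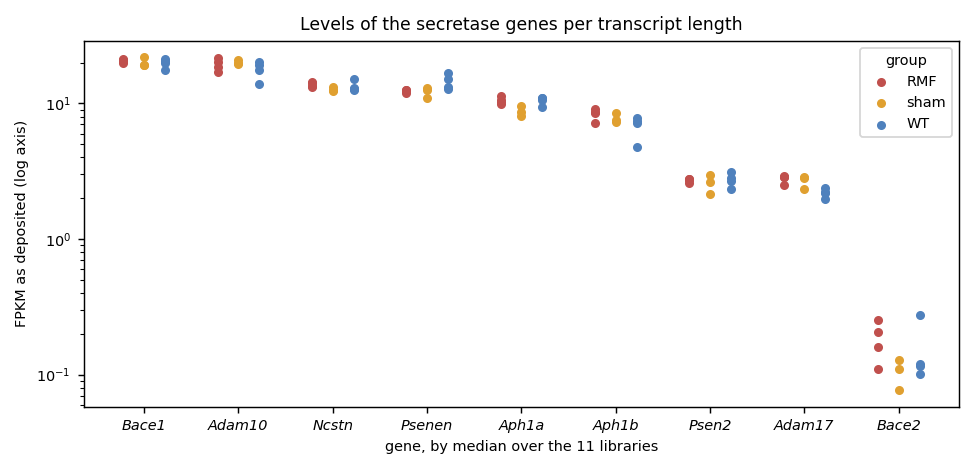
Deposited FPKM of the 9 secretase genes on a log axis, with 1 point per library and the groups RMF, sham and WT side by side for each gene. Bace1 and Adam10 lie highest, with medians of 20.4 and 19.4, and Bace2 lies lowest, with a median of 0.119.

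No secretase gene passed the test in any comparison. By edgeR's quasi-likelihood test with Benjamini-Hochberg adjustment over 14428 genes, at a threshold of 0.05, 0 of the 8 tested members were called in RMF against sham, where 0.0% of all tested genes were called. In sham against WT 0 of 8 were called, where 0.929% of all tested genes were. In RMF against WT 0 of 8 were called, against 1.19% of all tested genes, and with the mean of the RMF and sham groups set against WT, the comparison called APP/PS1 against WT below, 0 of 8 against 1.43%. By DESeq2 the shares of all genes called were 0.111%, 2.39%, 2.18% and 2.84% in these comparisons, with 0, 0, 1 and 1 members among them, and by limma voom with sample weights 0.0%, 1.75%, 2.13% and 2.22%, with 0, 0, 0 and 1 members. At these background shares a list of 8 genes holds few calls or none, so the counts say little about secretases as a group. The comparisons share libraries and are not independent. At an unadjusted p below 0.05 there was 1 member in RMF against sham and 2 in each of the other 3 comparisons, where 6.89%, 13.2%, 8.40% and 12.0% of all tested genes had such a p. The median log2 difference of the 8 members was 0.02, 0.02, 0.05 and 0.03 in RMF against sham, sham against WT, RMF against WT and APP/PS1 against WT, beside medians over all tested genes of -0.002, -0.002, -0.001 and -0.004.

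**Figure D2:**
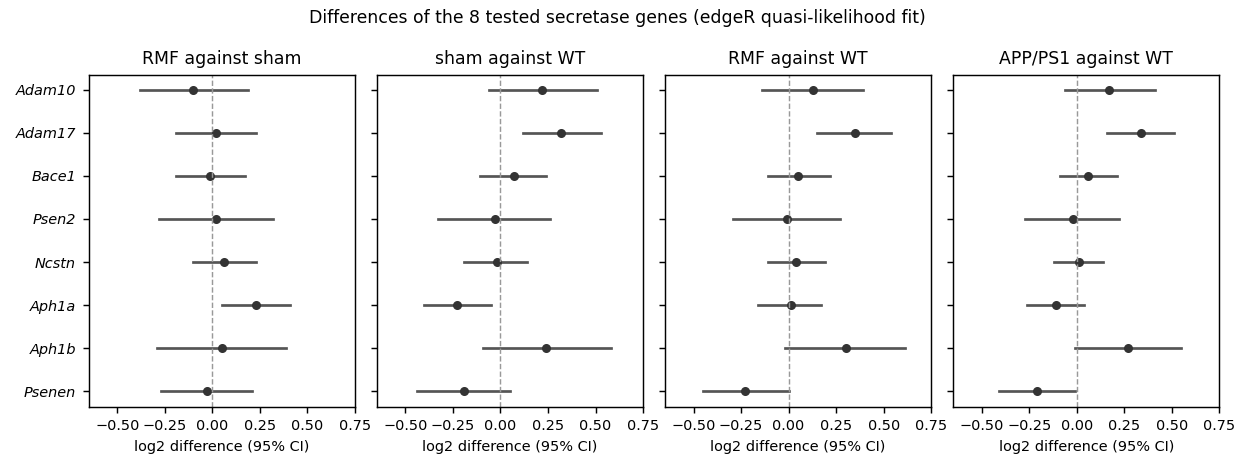
Log2 differences of the 8 tested secretase genes in the 4 comparisons, with 95% confidence intervals from the edgeR fit; values above 0 are higher in the group named first. Intervals that leave out 0 are those of Aph1a for RMF against sham, Adam17 and Aph1a for sham against WT, and Adam17 and Psenen for RMF against WT and APP/PS1 against WT, none of which had an adjusted p below 0.05.

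Adam17, also known as TACE, sheds tumour necrosis factor and many other membrane proteins and is the regulated alpha-secretase (ENSMUSG00000052593, chromosome 12, 21373510 to 21423633 on the minus strand, as the table gives it). Its zinc-binding stretch is printed above. Levels were 21.5, 21.3, 18.7 and 21.4 CPM in RMF 1 to 4, 21.3, 21.3 and 18.5 CPM in sham 1, 3 and 4, and 17.6, 14.97, 15.96 and 16.5 CPM in WT 1 to 4. All 7 APP/PS1 libraries lay above all 4 WT libraries, and 2.27% of tested genes had APP/PS1 libraries that were all higher in this way. For RMF against WT 4.21% of tested genes did not overlap with RMF higher, and for sham against WT 6.67% with sham higher, and Adam17 was the 1 member in each. The groups averaged 20.7 ± 1.38 CPM in RMF (SD, n = 4), 20.4 ± 1.61 in sham (n = 3) and 16.3 ± 1.11 in WT (n = 4). The log2 difference of APP/PS1 against WT was 0.34 (SE 0.0795, 95% confidence interval 0.16 to 0.51, 1.26-fold), with an adjusted p of 0.0814 by edgeR, and it ranked 241 of 14428 by p. Adam17 overlaps Iah1 on the other strand by 311 bases, and Iah1 had a median of 2.53 FPKM, near the 2.51 FPKM of Adam17 itself.

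The call for Adam17 depended on the tool. DESeq2 called it for APP/PS1 against WT (adjusted p = 0.006) and for RMF against WT (adjusted p = 0.0215). Limma voom with sample weights called it for APP/PS1 against WT (adjusted p = 0.0358). In edgeR the sham level was 1.25-fold that of WT (adjusted p = 0.202) and the RMF level 1.27-fold (adjusted p = 0.126), and over all alternatives the log2 difference of APP/PS1 against WT stayed between 0.30 and 0.38. On the deposited FPKM scale, which is not TMM-scaled, sham 4 stood at 2.33, below WT 1 at 2.39, so the sham and WT libraries overlapped there. RMF and sham did not differ detectably, with a log2 difference of 0.02 (95% confidence interval -0.19 to 0.23).

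Microglia are a known site of Adam17 expression, and their markers were higher in the same libraries. The 10 markers summed to between 532 and 635 CPM in RMF, between 492 and 622 CPM in sham and between 315 and 384 CPM in WT, and 10 of 10 had a log2 difference above 0 for APP/PS1 against WT, of which 7 passed the edgeR test. The 2 lowest Adam17 values among APP/PS1 libraries, 18.7 CPM in RMF 3 and 18.5 CPM in sham 4, went with marker sums of 584 and 492 CPM, and sham 1 had 21.3 CPM with a marker sum of 501 CPM. Of 10 markers of plaque-associated microglia 8 passed, and the list summed to between 195 and 233 CPM in RMF, between 178 and 229 CPM in sham and between 99.8 and 132 CPM in WT, with none at 0 in any library. The 8 astrocyte markers summed to between 3961 and 4229 CPM in RMF, between 3934 and 4406 CPM in sham and between 2756 and 3482 CPM in WT, and 1 passed, Gfap (2.97-fold, adjusted p = 0.0252 by edgeR for APP/PS1 against WT). Of 7 markers of pericytes and smooth muscle, Acta2, Tagln and Myh11 passed, at 3.49-fold, 3.61-fold and 2.83-fold, although the sums of that list overlapped between APP/PS1 and WT libraries. Markers of other organs also differed by genotype. Large intestine markers summed to 23.6 to 57.6 CPM in APP/PS1 libraries and 3.05 to 7.09 CPM in WT. Kidney markers summed to 20.3 to 40.2 CPM and 2.23 to 6.84 CPM, with 1 of 8 genes tested. Fast skeletal muscle markers summed to 4.93 to 7.32 CPM in APP/PS1 libraries and 45.7 to 68.5 CPM in WT. Liver marker sums overlapped, at 117 to 366 CPM in APP/PS1 libraries and 34.7 to 205 CPM in WT. Of 12 liver genes 11 passed the edgeR test as higher in APP/PS1 against WT. The part of any of these in the Adam17 levels was not tested. In bulk tissue a change in the number of cells of a type and a change in RNA per cell cannot be told apart.

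Adam10, the constitutive alpha-secretase of neurons (ENSMUSG00000054693, chromosome 9, 70586279 to 70687511), did not pass the test in any comparison. Its levels were 103, 110.4, 94.7 and 86.2 CPM in RMF 1 to 4, 99.0, 103 and 114 CPM in sham 1, 3 and 4, and 96.8, 104 and 69.8 CPM in WT 1 to 3 with 90.7 CPM in WT 4. The groups overlapped, and WT 3 was the lowest library of all. The log2 difference was -0.10 for RMF against sham (95% confidence interval -0.38 to 0.19), 0.22 for sham against WT (-0.06 to 0.51, adjusted p = 0.455 by edgeR) and 0.17 for APP/PS1 against WT (-0.06 to 0.41). Without WT 3 the differences of sham and of APP/PS1 against WT were 0.12 and 0.07. The ratio of Adam10 to Adam17 on the FPKM scale was 6.96 ± 0.759 in RMF (SD, n = 4), 7.61 ± 1.20 in sham (n = 3) and 8.14 ± 1.55 in WT (n = 4).

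Bace1 encodes the main beta-secretase of brain, whose cut starts amyloid-beta production (ENSMUSG00000032086, chromosome 9, 45749878 to 45775697). It stood at 138, 135, 139.6 and 128 CPM in RMF 1 to 4, at 127, 146 and 136 CPM in sham 1, 3 and 4, and at 133, 133, 114 and 141 CPM in WT 1 to 4. The groups overlapped, again with WT 3 lowest. RMF averaged 135 ± 5.10 CPM (SD, n = 4), sham 136 ± 9.80 CPM (n = 3) and WT 130.3 ± 11.4 CPM (n = 4). The 95% confidence interval of the fold was 0.876 to 1.12 for RMF against sham, 0.924 to 1.18 for sham against WT and 0.940 to 1.15 for APP/PS1 against WT. Bace1 overlaps 3 genes of the other strand in the table's coordinates, Rnf214, Gm16536, with 640 to 1205 counts per library, and Gm49338, with 500 to 865. No source used here says whether strand was used in counting. Without it, reads from the overlapping stretches cannot be assigned to Bace1 or to these genes.

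App was called higher in APP/PS1 mice and Bace1 was not called, and the ratio of App to Bace1 on the FPKM scale was 12.2 ± 0.677 in RMF (SD, n = 4), 12.2 ± 0.921 in sham (n = 3) and 6.02 ± 0.675 in WT (n = 4). The ratio of App to Adam10 was 13.1 ± 1.72 in RMF, 12.2 ± 0.972 in sham and 6.83 ± 1.38 in WT. Neither ratio overlapped between APP/PS1 and WT libraries. Reads of a transgene and of the mouse gene were not separated here, and the ratios describe whatever was counted as App.

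Bace2, a relative of Bace1 that is known from colon, pancreas and pigment cells and cuts within amyloid-beta, was the least abundant member (ENSMUSG00000040605, chromosome 16, 97157942 to 97244136). Its counts were 117, 144, 65 and 91 in RMF 1 to 4, 44, 64 and 72 in sham 1, 3 and 4, and 65, 58, 155 and 69 in WT 1 to 4. The highest library was WT 3 at 2.21 CPM, and the groups overlapped. With the minimum FPKM lowered to 0.1, the log2 difference was 0.75 for RMF against sham (95% confidence interval -0.14 to 1.64, adjusted p = 0.937 by edgeR) and -0.48 for sham against WT (-1.37 to 0.40, adjusted p = 0.679). With no filter on low values the adjusted p was 0.761 and 0.640 by edgeR. The difference of sham against WT was -0.05 without WT 3 and -0.29 without sham 1, and that of RMF against WT was 0.26 with all libraries, 0.69 without WT 3 and 0.07 without RMF 2. Markers of large intestine, an organ in which Bace2 is known to be expressed, summed to 23.6 to 56.5 CPM in RMF, 51.1 to 57.6 CPM in sham and 3.05 to 7.09 CPM in WT, with 8 of 11 at 0 counts in at least 1 library. Bace2 averaged 1.501 CPM in RMF, 0.899 CPM in sham and 1.25 CPM in WT. WT 3, the library with the highest Bace2, had an intestine marker sum of 7.09 CPM. The part of such tissue in the Bace2 levels was not tested.

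**Figure D3:**
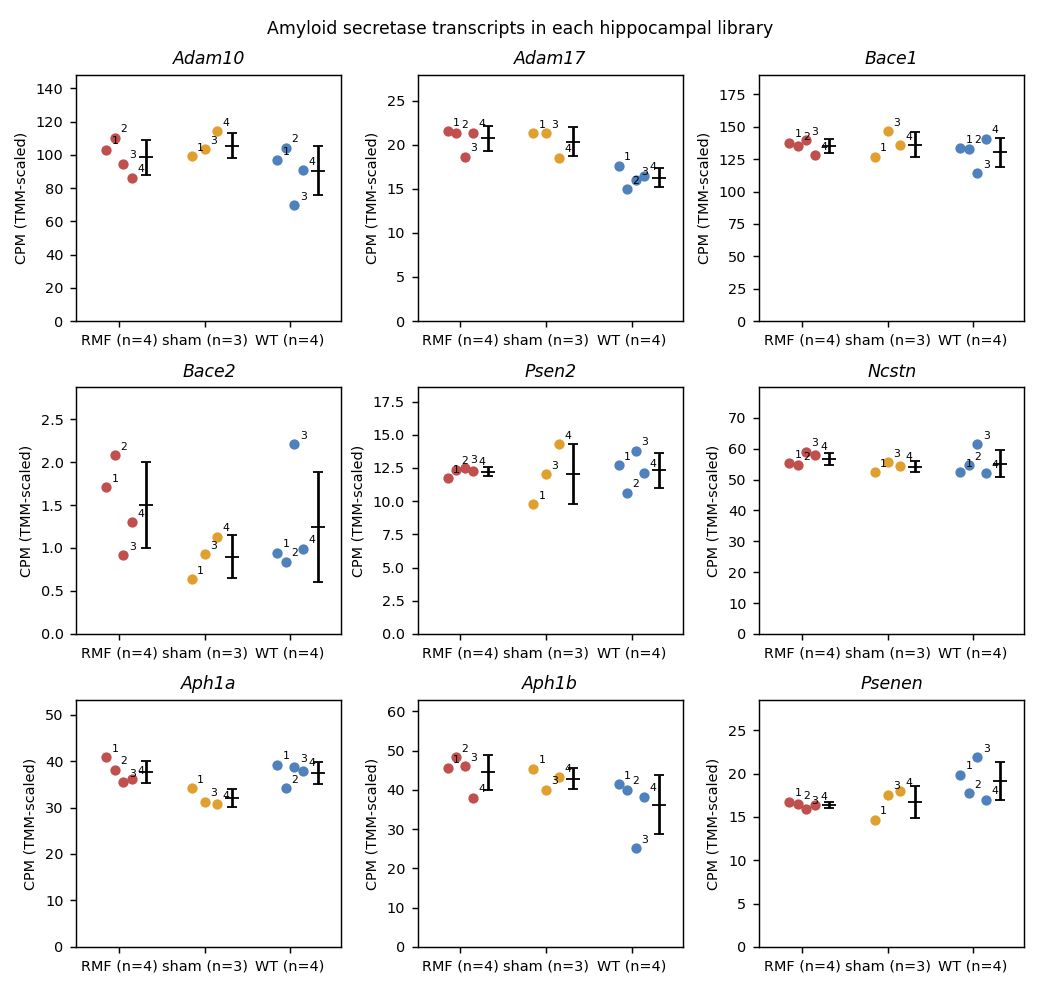
TMM-scaled CPM of the 9 secretase genes, with 1 point per library labelled by its replicate number, and the mean and SD of each group beside the points, for RMF, sham and WT. Adam17 is the gene whose 7 APP/PS1 libraries, 18.5 to 21.5 CPM, all lie above the 4 WT libraries, 14.97 to 17.6 CPM, and in Aph1a the 3 sham libraries lie at the low end, 30.7 to 34.2 CPM.

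Psen2 encodes presenilin 2, a catalytic subunit of gamma-secretase that is directed to late endosomes and lysosomes (ENSMUSG00000010609, chromosome 1, 180054569 to 180091003). It stood between 11.7 and 12.5 CPM in RMF, between 9.78 and 14.3 CPM in sham and between 10.6 and 13.8 CPM in WT. The sham libraries spanned both the lowest and the highest value of the 11. The log2 difference was 0.02 for RMF against sham (95% confidence interval -0.28 to 0.32) and -0.02 for APP/PS1 against WT (-0.27 to 0.22). Psen2 overlaps Gm31728 on the other strand by 7079 bases, and Gm31728 had a median of 0.311 FPKM.

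Ncstn encodes nicastrin, the glycoprotein subunit that admits substrates to the complex (ENSMUSG00000003458, chromosome 1, 171893580 to 171910362). It had the narrowest spread among the 8 tested members. Its level was 56.7 ± 2.09 CPM in RMF (SD, n = 4), 54.2 ± 1.68 CPM in sham (n = 3) and 55.2 ± 4.37 CPM in WT (n = 4), with WT 3 highest at 61.5 CPM. The 95% confidence interval of the fold was 0.936 to 1.17 for RMF against sham and 0.917 to 1.10 for APP/PS1 against WT. It overlaps Copa on the other strand by 267 bases, and Copa had a median of 23.6 FPKM.

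Aph1a, the APH-1 scaffold gene with the highest FPKM, had its lowest mean CPM in the sham group (ENSMUSG00000015750, chromosome 3, 95801281 to 95805600). It stood at 40.9, 38.2, 35.5 and 36.1 CPM in RMF 1 to 4, at 34.2, 31.3 and 30.7 CPM in sham 1, 3 and 4, and at 39.2, 34.1, 38.7 and 37.9 CPM in WT 1 to 4. All RMF libraries lay above all sham libraries, which held for 5.93% of tested genes, whereas sham 1 and WT 2 overlapped. The log2 difference was 0.23 for RMF against sham (SE 0.0817, 1.17-fold, adjusted p = 0.719 by edgeR) and -0.23 for sham against WT (SE 0.0816, 0.855-fold, adjusted p = 0.287), so neither passed. The 2 values rest on the same 3 sham libraries. RMF and WT differed by 0.01 (95% confidence interval -0.16 to 0.17). Aph1a overlaps Car14 on the other strand by 521 bases, and Car14 had a median of 3.73 FPKM.

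Aph1b encodes the other APH-1 form, which enters separate gamma-secretase complexes (ENSMUSG00000032375, chromosome 9, 66682484 to 66702772). It stood at 45.5, 48.3, 46.0 and 38.1 CPM in RMF 1 to 4, at 45.4, 40.1 and 43.2 CPM in sham 1, 3 and 4, and at 41.4, 40.1, 25.1 and 38.3 CPM in WT 1 to 4. WT 3 was far below the other 10 libraries. The log2 difference was 0.05 for RMF against sham (95% confidence interval -0.29 to 0.39) and 0.27 for APP/PS1 against WT (-0.01 to 0.55, adjusted p = 0.438 by edgeR), or 0.13 without WT 3. Its copy Aph1c, whose sequence is printed beside it, stood between 11.0 and 13.3 CPM in RMF, between 10.6 and 12.5 CPM in sham and between 8.77 and 13.5 CPM in WT.

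Within the 3 APH-1 genes, Aph1b took 39.4 ± 2.21% of the summed FPKM in RMF (SD, n = 4), 41.9 ± 0.698% in sham (n = 3) and 34.6 ± 5.73% in WT (n = 4), where WT 3 had 26.1% and the other WT libraries 36.5% to 38.8%. Aph1a took 47.3% to 52.4% in RMF libraries, 45.3% to 48.0% in sham libraries and 49.5% to 60.4% in WT libraries, with WT 3 highest. RMF overlapped with sham and with WT, and sham lay below WT. How often shares of other genes separate in this way was not computed. In CPM the Aph1a levels of sham and WT overlapped. Aph1c made up 10.6 ± 0.951% in RMF, 11.1 ± 0.922% in sham and 11.3 ± 2.13% in WT.

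Psenen encodes PEN-2, the smallest subunit, which completes the complex and permits presenilin to be cleaved into its active form (ENSMUSG00000036835, chromosome 7, 30261288 to 30262666). It stood at 16.7, 16.5, 15.9 and 16.4 CPM in RMF 1 to 4, at 14.7, 17.6 and 18.0 CPM in sham 1, 3 and 4, and at 19.9, 17.7, 21.9 and 17.0 CPM in WT 1 to 4. All RMF libraries lay below all WT libraries, which held for 2.54% of tested genes, and sham overlapped with WT. The log2 difference was -0.23 for RMF against WT (adjusted p = 0.590 by edgeR), -0.19 for sham against WT (adjusted p = 0.454) and -0.03 for RMF against sham. With the trend of each library with transcript length removed, the difference of sham against WT was -0.07 and that of RMF against WT -0.20, and Psenen has the shortest transcript of the 9, at 1322 bases by the ratio of count to FPKM. Without WT 3 the 2 differences were -0.12 and -0.15, and without sham 1 that of sham against WT was -0.11.

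**Figure D4:**
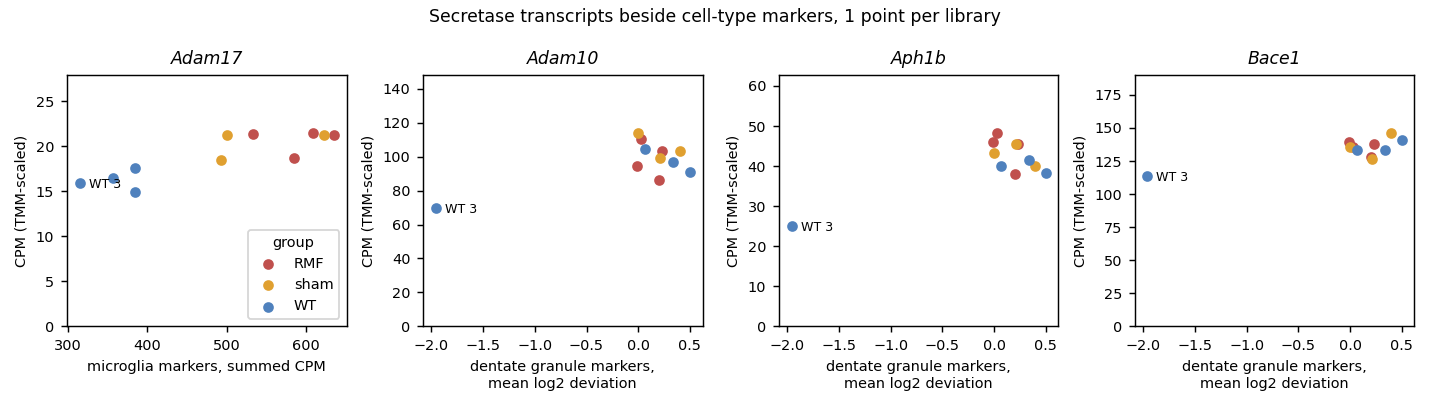
TMM-scaled CPM of Adam17 against summed CPM of 10 microglia markers, and of Adam10, Aph1b and Bace1 against the mean log2 deviation of 8 dentate granule cell markers, with 1 point per library coloured by RMF, sham and WT. WT 3 lies apart at -1.96 on the dentate axis with 69.8, 25.1 and 114 CPM of Adam10, Aph1b and Bace1, and the Adam17 points fall into APP/PS1 and WT libraries on both axes.

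The members differed in how much they varied within groups. The coefficient of variation of CPM within groups was 5.56% for Ncstn, 6.26% for Aph1a, 6.80% for Bace1, 7.10% for Adam17, 9.44% for Psenen, 11.5% for Psen2, 12.0% for Adam10 and 13.5% for Aph1b, beside a median of 12.7% over all tested genes. Adam10 and Aph1b were the pair of members with the highest correlation of log2 CPM across libraries. Their Pearson correlation over 11 libraries was 0.86, given as a description, and 0.54 over the 10 libraries without WT 3. For Bace1 and Aph1b it was 0.69 with WT 3 and -0.05 without it.

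Among all tested genes, those whose log2 CPM followed a member most closely over the 11 libraries were found by Pearson correlation, again as a description of libraries that share genotype and the outlying WT 3. For Adam17 they were Tmem176b and Arhgap45 (0.95 each), for Adam10 Alg10b and Slc35a5 (0.982 and 0.965), and for Bace1 Lrrc8d and Atxn1l (0.93 each). For Aph1b they were Atp7a and Pik3c2a (0.97 and 0.95), and for Aph1a Gm49594 and Pak1ip1 (0.927 and 0.915). For Psen2 they were Smad2 and Dglucy (0.92 and 0.91) and for Ncstn Gadd45a and 8430422M14Rik (0.93 and 0.92), and for Psenen an unnamed gene, ENSMUSG00000121042, and Rccd1 (0.93 and 0.91).

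Genes that act with the secretases were examined as lists. Among substrates of Adam10 and Adam17, 4 of 12 tested genes rose in APP/PS1 against WT and 0 fell, with a list median log2 difference of 0.27, where 1.3% of all tested genes rose. They were Prnp, the prion protein gene (2.34-fold, adjusted p = 2.65e-05 by edgeR), Trem2, a lipid-sensing receptor of microglia (2.69-fold, adjusted p = 0.000353), Tnfrsf1a, a receptor of tumour necrosis factor (1.69-fold, adjusted p = 0.0231), and Axl, a receptor for dying cells (1.25-fold, adjusted p = 0.0231). Tnfrsf1a averaged 10.7 ± 1.52 CPM in RMF, 11.1 ± 1.33 CPM in sham and 6.46 ± 1.10 CPM in WT, and Axl 50.9 ± 2.87, 51.1 ± 2.99 and 40.6 ± 2.12 CPM in the same groups. Of the 12 genes, Prnp and Trem2 also rose in sham against WT and in RMF against WT. Prnp was named, with App, as a check of the genotype labels. Whether reads of a transgene were counted as Prnp was not tested, so its rise cannot be read as that of the mouse gene alone. Trem2 and Axl are also on the list of plaque-associated microglia markers given beside Adam17, so their rise is not separate from that list, and the part of microglial content in it was not tested.

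Of 14 tested Bace1 substrates App alone rose in APP/PS1 against WT (2.14-fold, adjusted p = 2.65e-05 by edgeR) and 0 fell, with a list median of 0.08. No gene passed in 15 tested genes of Bace1 trafficking and turnover, where Rtn2, a reticulon, came closest (0.853-fold, adjusted p = 0.436), nor in 14 genes of Adam10 and Adam17 maturation, where Timp3, an inhibitor of Adam17, had 1.22-fold (adjusted p = 0.152). None passed among 8 gamma-secretase regulators with the copy Aph1c, where Ifitm3, an interferon-induced protein that binds gamma-secretase, had 1.69-fold (adjusted p = 0.169). The same held for 3 presenilin-related intramembrane proteases, led by Sppl2a (1.12-fold, adjusted p = 0.503), 7 other Adam genes, led by Adam8 (0.890-fold, adjusted p = 0.547), 5 other App-cleaving proteases, led by the asparagine endopeptidase gene Lgmn (1.17-fold, adjusted p = 0.332), and 9 Notch ligands, receptors and targets, led by Jag2 (0.867-fold, adjusted p = 0.489). In RMF against sham 0 genes of these 9 lists passed, as did 0 of all 14428 tested genes by edgeR, with 994 at an unadjusted p below 0.05 and 16 called by DESeq2.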

How the data were processed

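Total RNA was turned into libraries with oligo(dT) beads, per the labels' protocols, then sequenced in pairs and filtered by Cutadapt 1.9. For later steps, the submitters' processing notes list StringTie 1.3.4d, HISAT2 2.0.4 and edgeR. They name a human build although gene identifiers are those of mouse, so which mouse build was used is unknown here, and gene coordinates are the table's own. Per the file headers, the authors deposited raw whole-number counts per gene, not normalized, and FPKM values per gene beside them. The table also has 2 columns of values, headed Sham2, that match no sample, and they were not used.

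The 14428 genes that reached an FPKM of 1 in 3 or more libraries entered the test. Counts were TMM-scaled and fitted with edgeR 4.0.16 (quasi-likelihood, R 4.3.3), all 11 libraries and 3 groups together, without covariates; the script was tested on simulated data. Adjusted p-values are Benjamini-Hochberg over all tested genes. SE values derive from the F statistic, and confidence intervals from SE and the fit's degrees of freedom. DESeq2 1.42.0 and limma 3.58.1 were alternatives. CPM here means counts per 1000000 after TMM scaling. No 2 replicate libraries were as close as sampling noise (lowest chi-square over degrees of freedom 14.9). Sequences come from GENCODE M21 (GRCm38). For motifs and copies, 1 coding transcript per gene was used, principal by annotation where marked and otherwise longest.

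Named were the 9 members, App and Prnp, genes of each list that were called in a comparison or had the smallest adjusted p, and the 2 genes most correlated with each member. The members, lists and comparisons were chosen with earlier results of these data known. The alternatives tried were other tools, scalings, filters, groups in the fit, a replicate block, removal of the length trend, and each library left out.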

Additional observations from a re-analysis of the deposited data

Results flagged for a closer look

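In 18 groups of 4 libraries, 2 had a library far from the others, where chance flags about 1 in 20 groups. Bace2 stood at 2.21 CPM in WT 3, against 0.842 to 0.992 CPM in the other WT libraries. Adam17 stood at 18.7 CPM in RMF 3, against 21.3 to 21.5 CPM in the other RMF libraries.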

How the results depend on the processing

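Of 720 values of single members under alternatives, 679 kept their direction and their side of the threshold, 38 changed sign without passing and 3 passed, all of them Adam17. The 720 include fits that left out a library outside the comparison, where the difference itself could hardly move. Adam10 for RMF against sham, for example, was -0.098 both with all libraries and without WT 1. By DESeq2 the number of members called was 1 for RMF against WT and 1 for APP/PS1 against WT, and by limma voom with sample weights 1 for APP/PS1 against WT. The cause was not tested. Leaving out 1 library gave 0 members called in all 4 comparisons. The adjusted p of Adam17 over the alternatives ranged between 0.006 and 0.243 for APP/PS1 against WT, between 0.0672 and 0.463 for sham against WT and between 0.0215 and 0.360 for RMF against WT.

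The number of genes called over the whole table moved by more than 1.5 times in several settings. For sham against WT, with 134 called, it was 345 by DESeq2, 304 without a filter on low values, 363 with a minimum FPKM of 0.1, 76 with only the groups compared, 87 with the replicate block, 252 by limma voom with sample weights, and 89 to 153 with 1 library left out, lowest without sham 3. For RMF against WT, with 172 called, it was 315, 354, 378, 112 with the replicate block, 308 by limma voom, 260 without WT 3 and sham 4 together, and 121 to 203 with 1 library left out. For APP/PS1 against WT, with 206 called, it was 410, 413, 464, 126 with the replicate block, 320 by limma voom, and 141 to 215 with 1 library left out. For RMF against sham, with 0 called, it was 16 by DESeq2 and 0 to 1 with 1 library left out.

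Same-numbered libraries of different groups did not deviate together: their correlations lay between -0.246 and 0.156, and 1 of 11 libraries correlated best with their own number. The replicate block, a fit on numbers that do not pair the samples, called 0 members in every comparison.

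For RMF against sham, Bace1 was -0.01 and 0.002 under upper quartile scaling, 0.006 with the length trend removed and -0.061 to 0.043 with 1 library left out. Adam17 was 0.02, and -0.049 by limma voom, -0.042 without WT 3 and sham 4 together and -0.043 to 0.071 with 1 library left out. Psenen was -0.03, and 0.019 without those 2 libraries and -0.119 to 0.018 with 1 left out, and Psen2 was 0.02 and -0.106 to 0.162. For sham against WT, Ncstn was -0.02, and 0.035 by limma voom, 0.027 without those 2 libraries and -0.054 to 0.031 with 1 left out, and Psen2 was -0.03 and -0.179 to 0.094. For RMF against WT, Bace1 was 0.05, and -0.007 without those 2 libraries and -0.006 to 0.086 with 1 left out. Psen2 was -0.01, and 0.065 by limma voom, 0.046 without those 2 libraries and -0.076 to 0.047. Aph1a was 0.01, and -0.009 under upper quartile scaling, -0.001 without a filter and -0.036 to 0.034. For APP/PS1 against WT, Psen2 was -0.02, and 0.021 by limma voom and -0.097 to 0.042. Ncstn was 0.01, and -0.015 under upper quartile scaling, -0.002 without a filter, -0.001 with a minimum FPKM of 0.1 and -0.024 to 0.063. Bace2, recomputed without a filter and, as chosen after seeing the data, with each library left out, was -0.11 for APP/PS1 against WT and -0.257 to 0.32, highest without WT 3. Counting depth was lowest for Bace2, at 44 to 155 counts per library.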
